A study of Caenorhabditis elegans with 2 samples.

Results

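Vitellogenins and the receptor that takes them into the egg make up the yolk pathway examined here in whole Caenorhabditis elegans labelled as L4 larvae. Its 7 genes, vit-1 to vit-6 and rme-2, were taken by name from a deposited table of 46233 genes, and all 7 were found there. The table compared 1 library from the flp-6 mutant strain VC2324 with 1 library from the wild type strain N2. flp-6 encodes FMRFamide-like neuropeptides; the sources used here do not say which allele VC2324 carries. Each library came from the total RNA of whole animals, L4 being the last larval stage, and growth was at 25 °C for both strains. There was thus 1 library per genotype, so no value has an error between cultures, no test between genotypes could be made, and every difference below is one between 2 libraries.

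Yolk in this animal is a lipoprotein that the intestine makes and secretes. It crosses the body cavity and is endocytosed by growing oocytes through RME-2, a receptor of the low-density lipoprotein receptor family. Transcription of the vitellogenin genes is specific to the hermaphrodite intestine and begins around the passage from the L4 stage to the adult. Their levels are known to depend on sex, on age within that window and on nutrition.

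The 6 vitellogenin genes are long and alike in structure. In the WBcel235 assembly, by the Ensembl annotation, 5 of the 6 lie on chromosome X. vit-5 (WBGene00006929) is on the forward strand at 3403471 to 3408603. vit-4 (WBGene00006928) and vit-3 (WBGene00006927) are neighbours on the reverse strand, at 3558769 to 3563965 and at 3567355 to 3572549, with 3389 nt between them. vit-2 (WBGene00006926) is at 5101042 to 5106169 and vit-1 (WBGene00006925) at 7727889 to 7733168, both on the forward strand. vit-6 (WBGene00006930), whose product is cleaved into 2 smaller yolk proteins, lies apart on the forward strand of chromosome IV at 8261157 to 8266459. The longest transcripts measured 4870 to 5088 nt in 5 or 6 exons, and vit-3, vit-4 and vit-5 shared the same coding length of 4809 nt. The yolk receptor gene rme-2 (WBGene00004374) is on the forward strand of chromosome IV at 5470026 to 5473174, with a longest transcript of 2867 nt in 7 exons. Copies of vitellogenin genes resemble each other closely, vit-3 and vit-4 above all. The sources used here do not say how the authors assigned reads that fit several copies, so the split between close copies is uncertain.

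Both libraries held large amounts of vitellogenin transcript, and all 6 genes had lower FPKM in the mutant library than in N2. FPKM scales the fragments of a gene to its transcript length and to the size of the library, so levels can be compared between genes. The 6 genes summed to 8890 FPKM in the mutant library and 14875 FPKM in N2, so that the mutant sum was 59.8% of the N2 sum. The shortfall was uneven, since single genes stood between 40.6% and 71.8% of their N2 level.

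vit-2 and vit-6 were the most abundant members in both libraries. vit-6 had 3167 FPKM in the mutant library and 4409 FPKM in N2, a mutant level of 71.8% of N2 and the smallest difference of the family. vit-2 had 2942 FPKM in the mutant library and 4468 FPKM in N2, or 65.8% of N2. Among all 46233 genes, counted from the highest, vit-6 held rank 31 in the mutant library and 50 in N2, and vit-2 held rank 40 in the mutant library and 48 in N2. Both thus stood nearer to the top in the mutant library although their FPKM values were lower.

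vit-5 and vit-1 stood in the middle of the family. vit-5 had 1340.0 FPKM in the mutant library and 2732 FPKM in N2, or 49.0% of N2. vit-1 had 704 FPKM in the mutant library and 1736 FPKM in N2, or 40.6% of N2. This was the largest difference among the vitellogenins, with an N2 level 2.46 times the mutant level.

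The neighbours vit-3 and vit-4 were the least abundant. vit-3 had 357 FPKM in the mutant library and 824 FPKM in N2, or 43.3% of N2. vit-4 had 381 FPKM in the mutant library and 706 FPKM in N2, or 53.9% of N2. Because reads may be shared between this pair, their sum is the safer value, and it was 737 FPKM in the mutant library and 1530 FPKM in N2, or 48.2% of N2. The sum of vit-3, vit-4 and vit-5 stood at 48.7% of N2 and the sum of vit-1 and vit-2 at 58.8%. Since each gene of these sums was itself lower, the sums give the size for the group and do not bear on shared reads.

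**Figure D1:**
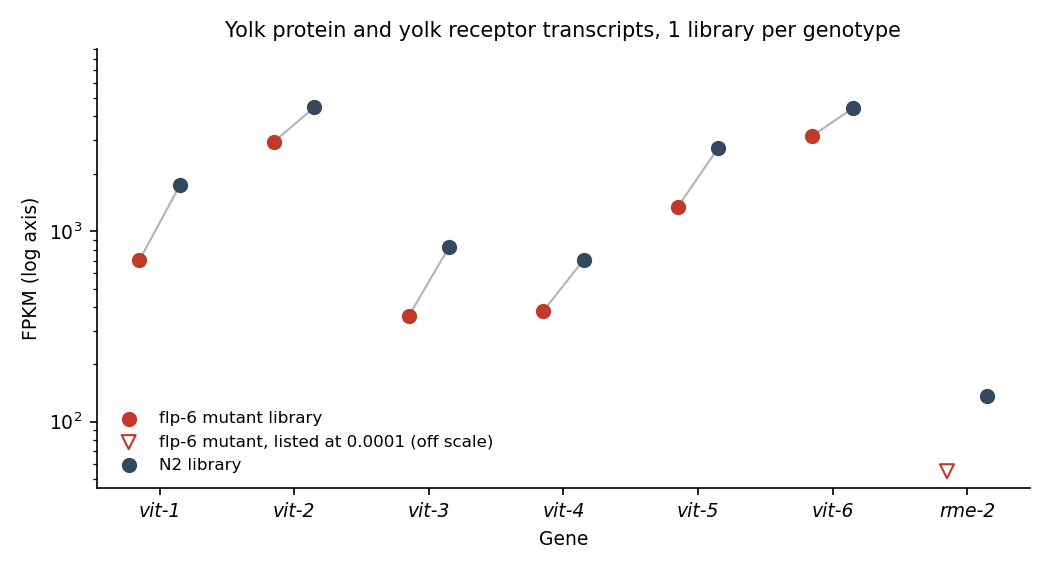
FPKM on a log axis for the 7 genes, with 1 point per library and a grey line joining the mutant library (left of each pair) to N2. All 6 vitellogenins lie lower in the mutant library, from 357 to 3167 FPKM against 706 to 4468 FPKM in N2, and the open triangle marks rme-2, which was listed at 0.0001 in the mutant library.

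The order of the levels was nearly shared. In the mutant library it ran vit-6, vit-2, vit-5, vit-1, vit-4, vit-3 and in N2 vit-2, vit-6, vit-5, vit-1, vit-3, vit-4, so that the order within the first pair and within the last pair was exchanged. The genes of those pairs were close, with vit-6 at 1.08 times vit-2 in the mutant library and 0.987 times in N2, and vit-4 at 1.07 times vit-3 in the mutant library and 0.857 times in N2. Without replicates it cannot be said whether such neighbours differ.

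Within the vitellogenin pool the less abundant genes lost share, a comparison that does not depend on how the libraries were scaled. vit-6 made up 35.6% of the summed vitellogenin FPKM in the mutant library and 29.6% in N2, and vit-2 made up 33.1% in the mutant library and 30.0% in N2. vit-1 made up 7.92% in the mutant library and 11.7% in N2, and vit-5 15.1% in the mutant library and 18.4% in N2. The highest vitellogenin was 8.88 times the lowest in the mutant library and 6.33 times in N2. The ratio of vit-2 to vit-1, the X-linked genes of the same yolk protein class, was 4.18 in the mutant library and 2.57 in N2.

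**Figure D2:**
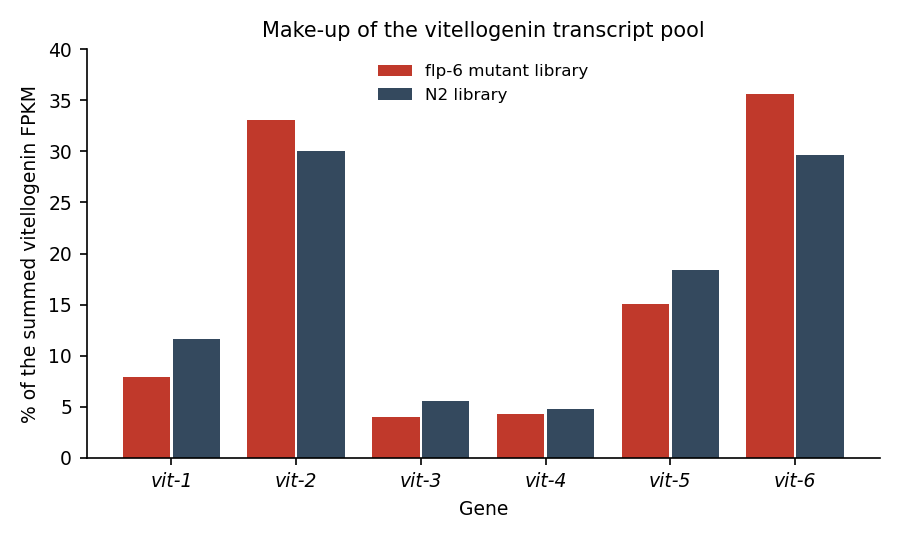
Share of each gene in the summed FPKM of the 6 vitellogenins, in percent, with the mutant library left of N2. vit-2 and vit-6 hold larger shares in the mutant library (33.1% and 35.6%) than in N2 (30.0% and 29.6%), and the other 4 genes hold smaller ones.

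Differences were expressed as log2((mutant FPKM + 1)/(N2 FPKM + 1)), with negative values for lower levels in the mutant library. The 6 values were -1.30 for vit-1, -1.21 for vit-3, -1.03 for vit-5, -0.89 for vit-4, -0.60 for vit-2 and -0.48 for vit-6. Their median was -0.96, beside -0.10 for the 13436 genes whose mean reached 1 FPKM. By this measure 3 of the 6 vitellogenins (vit-1, vit-3 and vit-5) were lower by 2-fold or more and 0 were higher by as much. Of all 13436 genes 11.3% were lower and 10.5% higher by 2-fold or more, genes at 0.0001 in 1 library included. The gene list counts below leave such genes out, so these shares are slightly too high beside them. Of the 13116 that were above 0.0001 in both libraries, 1365 (10.4%) were lower and 1244 higher by 2-fold or more. Lower by any amount were 55.8% of the 13116. In the authors' deposited table the vitellogenins had p-values from 0.057 for vit-1 to 0.256 for vit-6 and q-values of at least 0.951. None of the 7 genes was in the authors' deposited list of 715 genes, whose p-values reached at most 0.0499. That test sets 1 library against another and says nothing about spread between cultures.

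The size of the vitellogenin difference depended on the scale of the libraries, and for vit-6 its sign did. The FPKM values of all genes summed to 989473 in the mutant library and 1414572 in N2. The vitellogenin share of this sum was 0.898% for the mutant library and 1.05% for N2. With both libraries rescaled to the same FPKM sum the differences were -0.79 for vit-1, -0.69 for vit-3, -0.51 for vit-5, -0.37 for vit-4 and -0.09 for vit-2, while vit-6 turned to 0.04. That rescaling moved the median of all genes by 0.44, to 0.34, and shifts nearly all genes alike. Weighted by transcript length, which approximates a share of sequenced fragments, vitellogenins took 3.86% in the mutant library and 5.30% in N2. With the upper quartile, the median difference or the length-weighted sum set equal, all 6 stayed below 0. Lower by 2-fold or more were then 1, 2 and 1 of the 6, in that order. The share of 2-fold differences that were higher in the mutant library was 48.0% as deposited, 86.8% with equal FPKM sums, 73.3% with equal length-weighted sums, 68.7% with equal upper quartiles and 66.7% with the median difference set to 0.

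**Figure D3:**
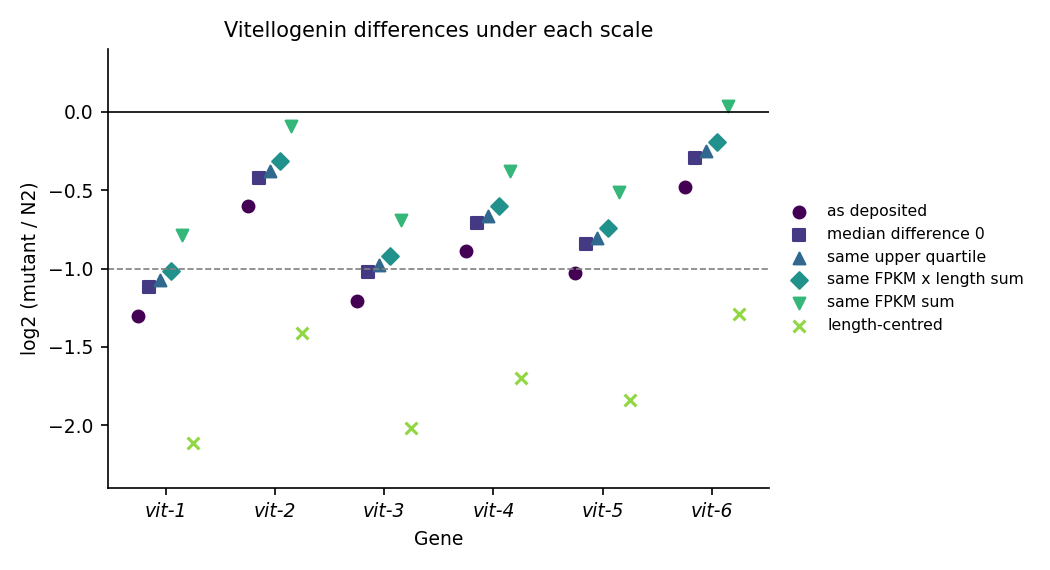
log2 difference (mutant over N2) of each vitellogenin under 5 scales and after centring by transcript length, with lines at 0 and at a 2-fold lower level. Points lie below 0 except vit-6 with equal FPKM sums (0.04), and the length-centred values, from -2.11 to -1.29, are the lowest for each gene.

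Transcript length moved with the difference across the transcriptome, and the vitellogenins stood apart from other genes of their length. The median log2 difference was -0.56 for 1244 genes with transcripts of 500 to 700 nt, 0.17 for 1825 genes of 2000 to 3000 nt and 0.64 for 402 genes of 4000 to 6000 nt. Of those 402 genes, 16.7% were higher in the mutant library by 2-fold or more, 1.49% (6 genes) lower to that degree and 10.4% lower by any amount. The vitellogenins held places 3, 4, 5, 7, 10 and 15 from the lowest of these 402 differences. The other genes of that length past 2-fold on the lower side, named after their values were seen, were nep-17 at 12.5 FPKM in the mutant library and 69.6 FPKM in N2, mdt-19 at 20.8 FPKM in the mutant library and 59.8 FPKM in N2, and F09C3.2 at 2.39 FPKM in the mutant library and 5.79 FPKM in N2. After subtraction of the median of their length bin, the vitellogenins had a median of -1.77, and 6 of 6 were lower by 2-fold or more. By that rule 3.15% of 12999 genes were. The bin also held much longer genes, such as daf-2 at 7325 nt. The amount subtracted was larger than the 0.64 of the 4000 to 6000 nt class, so the centred values are lower than that class alone would give.

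Expression level moved with the difference the other way. The 584 genes whose mean reached 300 FPKM had a median of -0.53, and in the mutant library 22.1% of them were lower by 2-fold or more and 82.2% by any amount. Their length-centred median was -0.15. Only 8 genes combined such a mean with a transcript of 4000 nt or longer, a set looked at after the values were seen. These were the 6 vitellogenins, ret-1 at 528 FPKM in the mutant library and 695 FPKM in N2, and cbd-1, a chitin-binding protein of the eggshell, at 503 FPKM in the mutant library and 221 FPKM in N2. The part of length and of level in the vitellogenin difference was not tested. Chromosome X, which holds 5 of the 6 genes, had a median of -0.08 over 1746 genes, and the 5 autosomes had medians from -0.13 to -0.10.

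**Figure D4:**
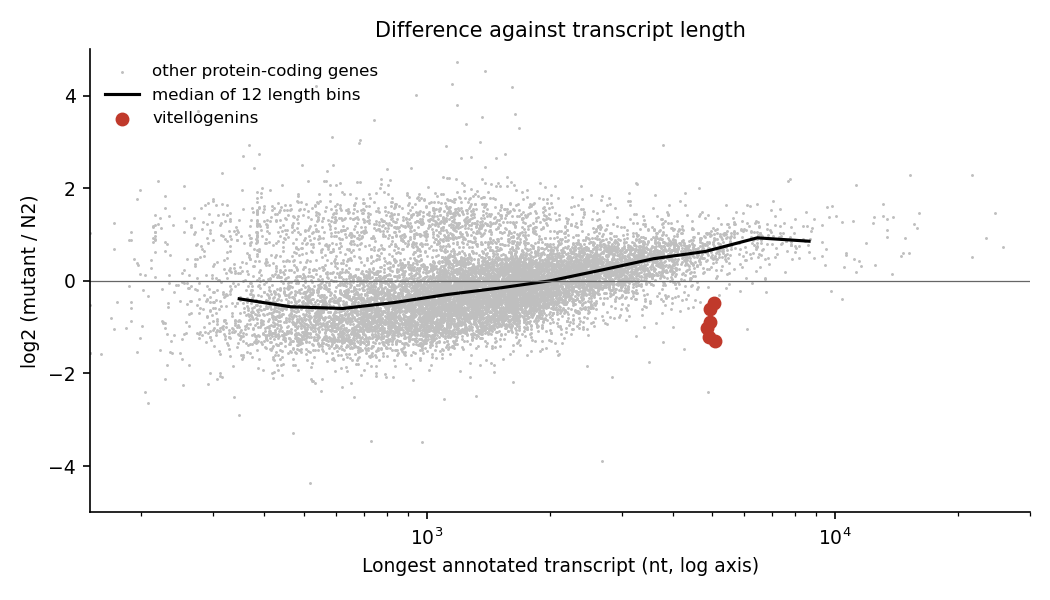
log2 difference (mutant over N2) against the length of the longest transcript (nt, log axis) for protein-coding genes whose mean reached 1 FPKM and that were above 0.0001 in both libraries, with the median of 12 length bins as a black line. The 6 vitellogenins (red) lie between -1.30 and -0.48 where the median of genes of 4000 to 6000 nt is 0.64. Of 12458 genes, 18 lie outside the axes.

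Antisense transcripts annotated over the starts of vit-3 and vit-4 had higher FPKM in the mutant library. The noncoding RNA F59D8.3 overlaps the start of vit-4 by 150 nt on the opposite strand and had 12.1 FPKM in the mutant library and 3.05 FPKM in N2, a log2 difference of 1.69. T27A10.8, which overlaps the start of vit-3 by 171 nt in the same way, had 5.47 FPKM in the mutant library and 2.12 FPKM in N2, a difference of 1.05. Both share the authors' locus field with their vitellogenin gene, and the sources used here do not say whether strand was used in counting. Reads from an antisense RNA and from the vitellogenin end it covers may therefore not be separable. K07H8.16, which shares the locus field of vit-6 on the opposite strand, was listed at 0.0001 in both libraries.

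The yolk receptor rme-2 was listed at 0.0001 in the mutant library, against 135.7 FPKM in N2. In N2 it ranked 1572 among 46233 genes, well below the vitellogenins. The value 0.0001 stands in the table where 0 would be, and no fold is given for it. Genes that every cell needs were listed in the same way, so the entry is given only as listed. Of protein-coding genes with at least 100 FPKM in N2, 6 were at 0.0001 in the mutant library: rme-2, rab-11.1, dars-1 (an aminoacyl-tRNA synthetase), nlp-36, asp-1 and rpl-35, a ribosomal protein gene at 3515 FPKM in N2. Of these dars-1, nlp-36 and rpl-35 were named after their values were seen. For all 6 the authors' deposited table gave a p-value of 1. The reverse case, at 0.0001 in N2 and at least 100 FPKM in the mutant library, held 3 protein-coding genes, for which the authors' deposited table again gave a p-value of 1. Among the 13436 genes, of any kind and from a mean of 1 FPKM upward, 1.18% were at 0.0001 in the mutant library only and 1.21% in N2 only. These shares do not hold for protein-coding genes at the level of rme-2, for which no share was computed. For scale, 1835 genes of any kind had a mean of at least 100 FPKM and were above 0.0001 in both libraries. By N2 level the genes most like rme-2 among those at 0.0001 in the mutant library were the short noncoding RNAs F01E11.19 (119.9 FPKM in N2), Y67A6A.3 (157.3 FPKM), F13G11.144 (161.3 FPKM) and ZC581.13 (197.5 FPKM), together with rab-11.1 (192.3 FPKM).

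The genes beside rme-2 on chromosome IV were read in both libraries, at low levels. Named after their values were seen, T11F8.4, 956 nt away, had 3.10 FPKM in the mutant library and 0.634 FPKM in N2, and Y52D5A.1, 891 nt away on the other side, had 0.438 FPKM in the mutant library and 0.107 FPKM in N2. Oocytes are the cells that use this receptor, and their markers were present in both libraries. Why rme-2 was listed at 0.0001 was not tested, and neither its neighbours nor these markers tell. All 22 oocyte genes listed, from RNA-binding proteins to eggshell components, were above 0.0001 in both, with a sum of 8025 FPKM in the mutant library and 6608 FPKM in N2.

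The machinery that exports yolk from the intestine lay within 2-fold. Of 7 measured genes 0 were past 2-fold on either side, and their median was 0.14, with 0.08 after centring by length. Of all genes 10.5% were higher and 11.3% lower by 2-fold or more. Most genes thus lay within 2-fold, and the count is not a result about this list. Of the coat that buds cargo from the endoplasmic reticulum, the subunit genes sec-24.1, at 68.0 FPKM in the mutant library and 37.97 FPKM in N2, and sec-23, at 87.4 FPKM in the mutant library and 52.9 FPKM in N2, were higher. The GTPase sar-1, which starts the coat, was lower at 261 FPKM in the mutant library and 429 FPKM in N2. Named for their roles after their values were seen, dsc-4, the microsomal triglyceride transfer protein that loads lipid, had 28.4 FPKM in the mutant library and 25.8 FPKM in N2. The cargo receptor sft-4 had 169 FPKM in the mutant library and 184 FPKM in N2. The median of this list was above 0 under each scale tried.

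Genes for the uptake and endosomal sorting of yolk were mostly higher in the mutant library. Of 18 above 0.0001 in both libraries, 4 were higher and 1 lower by 2-fold or more, 14 were higher by any amount, and the median was 0.42. Of all genes 10.5% were higher by 2-fold or more, and 44.2% of those above 0.0001 in both libraries were higher by any amount. Among the 4, rme-6, an exchange factor for the early endosome GTPase RAB-5, had 14.1 FPKM in the mutant library and 5.43 FPKM in N2. The epsin gene epn-1 had 96.6 FPKM in the mutant library and 41.0 FPKM in N2. The other 2 were named after their values were seen. They were chc-1, the clathrin heavy chain gene, at 140.9 FPKM in the mutant library and 69.9 FPKM in N2, and dyn-1, the dynamin gene, at 29.6 FPKM in the mutant library and 14.3 FPKM in N2. The lower gene was aps-2, the small subunit of the AP2 adaptor, at 45.4 FPKM in the mutant library and 104.2 FPKM in N2. The recycling GTPase rab-11.1 was listed at 0.0001 in the mutant library, against 192.3 FPKM in N2. After centring by length the median was 0.20, and 1 gene (epn-1, at 1.08) was higher and 0 lower by 2-fold or more. rme-6 and dyn-1 then each stood at 0.73, aps-2 at -0.63 and chc-1, with a transcript of 5395 nt, at 0.19. By the same centred measure 10.9% of 12999 genes were higher by 2-fold or more. chc-1 is thus a long gene of the vitellogenins' length class whose difference lay close to that of its class. These genes act in every tissue, so whole-animal values do not tell whether they differed in oocytes.

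Known regulators of vitellogenin transcription were measured in 18 of 18 cases, and 2 were higher and 0 lower by 2-fold or more. That share is near the 10.5% of all genes higher by as much, so the count is not a result about these regulators. The 2 were the RNA-binding protein gene lin-41, at 84.8 FPKM in the mutant library and 32.6 FPKM in N2, and the insulin receptor gene daf-2, at 19.5 FPKM in the mutant library and 7.99 FPKM in N2. lin-41 belongs also to the oocyte list, where it acts in oocyte growth. The heterochronic gene lin-14 had 10.6 FPKM in the mutant library and 5.39 FPKM in N2. The median was 0.27, and 0.09 after centring by length, at which lin-41 stood at 0.79 and daf-2 at 0.38 and 0 of 18 were past 2-fold.

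Intestinal transcription factors and others tied to vitellogenin promoters differed in either direction, within 2-fold. They are named for their roles after their values were seen. The homeodomain activators unc-62 and ceh-60 had 28.9 and 10.4 FPKM in the mutant library, against 23.8 and 8.12 FPKM in N2. The intestinal GATA factor elt-2 had 7.98 FPKM in the mutant library and 6.79 FPKM in N2, whereas elt-7, another one, was lower at 8.79 FPKM in the mutant library and 12.9 FPKM in N2. The zinc finger protein gene pqm-1 had 36.97 FPKM in the mutant library and 31.3 FPKM in N2. mab-3, which represses vitellogenin genes in males, had 1.39 FPKM in the mutant library and 1.15 FPKM in N2. The difference of elt-7 was -0.51, about that of vit-6 (-0.48), and stood at 0.00 after centring by length. The other 5 lay between 0.15 and 0.33 as deposited, and after centring by length unc-62 turned to -0.23. In the rest of the list the lowest difference was that of the heterochronic gene lin-28, at 63.3 FPKM in the mutant library and 109.9 FPKM in N2 (-0.79).

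Intestinal genes other than the vitellogenins were not lower as a list. The 13 intestine markers above 0.0001 in both libraries had a median of -0.01, or 0.00 after centring by length. By any amount 6 were higher and 7 lower. By 2-fold or more 1 was higher and 0 lower, beside 10.5% and 11.3% of all genes. After centring these counts were 0 and 0, beside 10.9% and 3.15% of 12999 genes. With 13 genes such counts are not a result about the list. The transporter gene pgp-1 had 19.3 FPKM in the mutant library and 7.35 FPKM in N2, and the peptide transporter gene pept-1 had 111.4 FPKM in the mutant library and 61.9 FPKM in N2. The gut esterase gene ges-1 had 12.3 FPKM in the mutant library and 18.7 FPKM in N2. asp-1, an intestinal aspartyl protease gene, was listed at 0.0001 in the mutant library, against 1961 FPKM in N2. In whole animals, fewer cells of a type and less RNA per cell cannot be told apart.

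**Figure D5:**
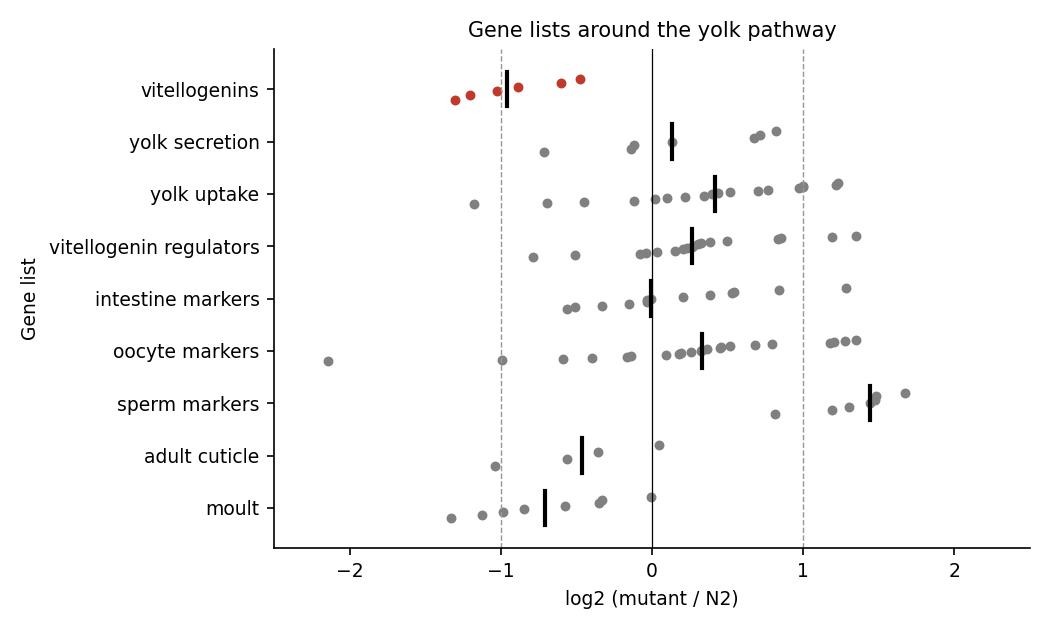
log2 difference (mutant over N2) of each gene above 0.0001 in both libraries whose mean reached 1 FPKM, by gene list, with the median as a black bar and dashed lines at 2-fold. The vitellogenins (red, median -0.96) lie to the left of the intestine markers (-0.01), and the sperm markers (1.44) lie to the right.

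Germ line markers did not follow the vitellogenins. Of 22 oocyte genes 4 were higher and 1 lower by 2-fold or more, and the median was 0.33, or 0.34 after centring by length. Of all genes 10.5% were higher and 11.3% lower to that degree, and after centring 2 oocyte genes were still higher (cpg-1 and, named after its value was seen, mex-5) and 1 lower by 2-fold or more. cpg-1, a chondroitin proteoglycan of the eggshell, had 1013 FPKM in the mutant library and 417 FPKM in N2, whereas cav-1, a caveolin, had 10.4 FPKM in the mutant library and 49.2 FPKM in N2. Of the 7 sperm markers whose mean reached 1 FPKM, 6 were higher and 0 lower by 2-fold or more, and the median was 1.44. The median was 1.25 without the filter on low values and 1.19 with a pseudocount of 5. spe-10, named after its values were seen, had 1.91 FPKM in the mutant library and 0.655 FPKM in N2. It passed the filter only through the mutant library, where it was higher, so it adds no weight to the median. It is not among the 6. The phosphatase gene gsp-3 had 48.8 FPKM in the mutant library and 14.6 FPKM in N2, gsp-4 had 33.1 FPKM in the mutant library and 11.2 FPKM in N2, and spe-11 had 27.2 FPKM in the mutant library and 9.11 FPKM in N2. In hermaphrodites sperm are made before oocytes, during the L4 stage. The part of age in the differences of these lists was not tested.

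Moulting genes, and as deposited most adult cuticle genes, had lower FPKM in the mutant library. col-19, a collagen gene of the adult cuticle, was high in both libraries, at 1057 FPKM in the mutant library and 1357 FPKM in N2. The other adult cuticle genes measured were low, with bli-2 at 2.10 FPKM in the mutant library and 5.37 FPKM in N2 and rol-1 at 4.65 FPKM in the mutant library and 7.34 FPKM in N2. The last of the 4 measured, col-7, named after its values were seen, was higher. It had 1.35 FPKM in the mutant library and 1.27 FPKM in N2. The 4 genes of that list had a median of -0.46, which was -0.12 after centring by length and turned to 0.02 with equal FPKM sums. After centring col-19 stood at 0.10. Of 8 measured moulting genes 2 were lower by 2-fold or more, 0 were higher, and the median was -0.71. It was -0.88 after centring by length and -0.26 with equal FPKM sums. Without the filter on low values it was -0.57, with a mean of at least 5 FPKM -0.57 and with a pseudocount of 5 -0.42. Of all genes 11.3% were lower by 2-fold or more. All 8 moulting genes were lower by any amount, beside 55.8% of genes above 0.0001 in both libraries. Of these mlt-10, named after its values were seen, was almost equal, at 1.334 FPKM in the mutant library and 1.343 FPKM in N2. noah-1, an apical matrix protein gene, had 2.33 FPKM in the mutant library and 7.36 FPKM in N2. mlt-8 had 2.78 FPKM in the mutant library and 7.22 FPKM in N2. noah-2 had 0.624 FPKM in the mutant library and 2.21 FPKM in N2. Named after its values were seen, qua-1 had 0.776 FPKM in the mutant library and 1.26 FPKM in N2. Both noah-2 and qua-1 passed the filter only through N2, where they were higher. They therefore add no weight to the lower median or to the count of 8 lower genes. In both libraries col-19, the vitellogenins and the oocyte genes were thus abundant and most moulting genes low. The abundant genes do not match the L4 label as far as they mark the adult. The adult cuticle list was split, however, since its members other than col-19 were low. Among them bli-1, named after its values were seen, had 0.719 FPKM in the mutant library and 1.16 FPKM in N2, below the filter. The stage of the animals was thus not settled by these markers. The part of age in the vitellogenin difference was not tested.

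For sex and embryos, markers that L4 hermaphrodites should lack were looked at. The 7 genes of male-specific sensory neurons summed to 0.1005 FPKM in the mutant library and 0.693 FPKM in N2, so male neuron transcripts were near 0 in both. lov-1 was at 0.0001 in both libraries. The 6 genes of early embryonic lineages summed to 0.300 FPKM in the mutant library and 1.47 FPKM in N2. In both lists 0 genes reached a mean of 1 FPKM. Such genes stand for few cells, so low values in whole animals do not show that males or embryos were absent. The targeted gene flp-6 itself had 4.40 FPKM in the mutant library and 57.95 FPKM in N2. Housekeeping genes, as a last comparison, had a median of 0.13 over 18 measured members, or 0.11 after centring by length. Of these, 0 were higher and 1 lower by 2-fold or more, beside 10.5% and 11.3% of all genes. The lower one was ubq-2, at 2605 FPKM in the mutant library and 5960 FPKM in N2. After centring ubq-2 stood at -0.65, and 0 of the 18 were past 2-fold on either side. Of the others ama-1 had 34.9 FPKM in the mutant library and 20.5 FPKM in N2 and eef-1A.2 had 659 FPKM in the mutant library and 403 FPKM in N2, while eef-1A.1 and act-2, named after their values were seen, were listed at 0.0001 in both libraries.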

How the data were processed

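Total RNA of whole animals was made into TruSeq libraries with short single reads, per the labels' protocols. The submitters' processing notes name TopHat, Cufflinks and WBcel235, without versions or settings. The deposited FPKM values, 1 column per library per the file headers, were normalized for length and library size by the authors. The deposited ratio and the deposited log2 ratio of the authors are mutant over N2 FPKM without a pseudocount. The deposited p-value and q-value are from a test by the authors that sets 1 library against the other.

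Depth is unknown: FPKM times length fell on whole steps (within 0.1) for at most 23.3% (mutant library) and 23.7% (N2) of low values, against 20% by chance. Differences used a pseudocount of 1, which understates low genes, and genes whose mean reached 1 FPKM. Length centring ranked genes by transcript length, cut them into 40 bins with equal numbers of genes and subtracted each bin's median. The bins of long transcripts therefore span a wide range of lengths. Lengths came from the Ensembl annotation, which held 99.2% of gene identifiers. Members, lists and alternatives were chosen with earlier results of these data known. Named were all members, flp-6, the 3 largest differences of each list, list members at 0.0001 in 1 library and at least 5 FPKM in the other, the 5 genes most like the members, and genes sharing a member's locus field. The lists cover yolk secretion, yolk uptake, vitellogenin regulators, intestine, oocyte, sperm, adult cuticle, moult, early embryo, male neurons and housekeeping. sec-16A.1, ifo-1 and trp-3 of these lists were not matched in the table and were not analysed here. Python 3.11.15, numpy 2.4.6, pandas 2.3.3 and matplotlib 3.10.9 were used.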

Additional observations from a re-analysis of the deposited data

How the results depend on the processing

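With 1 library per genotype nothing here has a replicate error. The filters left the vitellogenin values as they were, and the pseudocounts could hardly move genes at these levels. Under the other scales and after length centring, vit-6 with equal FPKM sums was above 0 (0.04) and the other vitellogenin values were below 0. The median of the 6 vitellogenins (-0.96) was -0.95 with a pseudocount of 5, -0.73 with equal upper quartiles, -0.78 with the median difference set to 0, -0.44 with equal FPKM sums, -0.67 with equal sums of FPKM times length (chosen after seeing the data), -1.77 after length centring and -0.87 for the summed vit-1 to vit-5. The count of vitellogenins at least 2-fold lower (3) was 0 with equal FPKM sums, 0 at a 4-fold threshold, 1 with equal upper quartiles, 1 with equal length-weighted sums and 6 after length centring. Over all genes the count at least 2-fold higher (1406) was 480 with a pseudocount of 5, 749 with a mean of at least 5 FPKM, 2744 with equal FPKM sums and 217 at 4-fold. The count at least 2-fold lower (1523) was 950 with a pseudocount of 5, 417 with equal FPKM sums, 847 with equal upper quartiles, 917 with the median difference set to 0, 409 after length centring, 737 with equal length-weighted sums and 160 at 4-fold. The pseudocount pulls low genes towards 0, and a higher filter or fold leaves fewer genes to count; the cause of the other shifts was not tested. No paired analysis was possible because each genotype had 1 library.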

Other observations

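The genes whose pair of levels lay nearest to the median point of the vitellogenins, by distance on the log2(FPKM + 1) scale over the 2 libraries, were of other kinds. They were ncbp-2, a cap-binding complex subunit, at 997 FPKM in the mutant library and 2231 FPKM in N2, the mitochondrial NADH dehydrogenase genes MTCE.16 at 927 FPKM in the mutant library and 2192 FPKM in N2 and MTCE.35 at 929 FPKM in the mutant library and 1971 FPKM in N2, the fatty-acid binding protein gene lbp-9 at 908 FPKM in the mutant library and 2091 FPKM in N2, and the ribosomal protein gene rps-14 at 1068 FPKM in the mutant library and 2261 FPKM in N2. Their longest transcripts measured 507 to 1582 nt, against 4870 to 5088 nt for the vitellogenins. Over only 2 libraries such likeness describes level and nothing more.

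The genes next to the vitellogenins on chromosome X varied. spp-14, a saposin-like gene 1505 nt from vit-1, had 1141 FPKM in the mutant library and 1808 FPKM in N2. unc-78, an actin-interacting protein gene 70 nt from vit-5, had 24.6 FPKM in the mutant library and 25.6 FPKM in N2, and rgs-7, a regulator of G protein signalling 985 nt from vit-4, had 8.41 FPKM in the mutant library and 8.53 FPKM in N2. These neighbours were named after their values were seen.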
